A study of Mus musculus with 35 samples.

Results

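The 2′-5′ oligoadenylate synthetase (OAS) family was followed here in myeloid-derived suppressor cells (MDSC) and bulk tissue of mouse pancreatic tumors. Its 8 members, Oas1a, Oas1b, Oas1c, Oas1g, Oas2, Oas3, Oasl1 and Oasl2, were chosen by name and were found through their Ensembl identifiers among the 53379 gene rows of the count table. They lie on chromosome 5 in 2 groups (GRCm38). Oasl2 (ENSMUSG00000029561.17, chr5:114896936-114912234) and Oasl1 (ENSMUSG00000041827.15, chr5:114923240-114937915) are neighbours on the plus strand. The other members follow one another from Oas2 (ENSMUSG00000032690.16, chr5:120730333-120749853) through Oas3 (ENSMUSG00000032661.9, chr5:120753098-120777661), Oas1c (ENSMUSG00000001166.17, chr5:120800194-120812514), Oas1b (ENSMUSG00000029605.16, chr5:120812635-120824163) and Oas1g (ENSMUSG00000066861.14, chr5:120876142-120887613) to Oas1a (ENSMUSG00000052776.10, chr5:120896256-120907521). Of these, Oas1b is on the plus strand and the rest are on the minus strand. Oas1b is annotated as a polymorphic pseudogene, and the annotated starts of Oas1b and Oas1c are 121 bases apart. The Oas1 genes are known as closely related copies, and how reads shared between them were divided was not tested.

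C57BL/6 mice carried orthotopic pancreatic tumors grown from T110299, a single cell line from a Ptf1a-Cre tumor mouse. The sample titles number 8 mice, of which 4 received 50 µg of high molecular weight poly(I:C) complexed with in vivo-jetPEI at an N/P ratio of 6 (poly(I:C)c) intravenously on days 18 and 20 after tumor induction. The other mice are called untreated: the sample labels give glucose as their control injection, while the account of the transcriptome experiment mentions no injection for them. After magnetic enrichment of CD11b+ cells, flow sorting gave PMN-MDSC (CD11b+Ly6CloLy6G+, the granulocytic type) and M-MDSC (CD11b+Ly6ChiLy6G−, the monocytic type) of spleen and tumor, and bulk tumor of untreated mice was lysed directly. Each group had 4 libraries except treated splenic PMN-MDSC, with 3, and treated tumor M-MDSC, where 1 of 4 held 10 counts and was left out. The 30 MDSC libraries held 793070 to 4357105 counts, and the 4 bulk libraries 3771590 to 8886115.

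Several libraries differed from their labels in marker genes. Neutrophil markers (9 of 10 listed genes found) summed to 1414 to 4500 CPM (counts scaled to library size) in untreated tumor PMN-MDSC, against 20250 to 39945 CPM in untreated splenic PMN-MDSC. In the same groups macrophage markers (5 of 6 found) summed to 9564 to 12659 CPM and 404 to 1257 CPM, and Ly6g, the sort marker, stood at 0 to 8.98 CPM and 37.5 to 101 CPM. Treated tumor PMN-MDSC held 3649 to 11839 CPM of neutrophil and 8049 to 16948 CPM of macrophage markers. In treated splenic PMN-MDSC these sums were 46158 to 71187 CPM and 79.3 to 212 CPM. In treated tumor M-MDSC, library 2 held 2.72 CPM of Ly6c2 against 584 and 409 CPM in the other libraries, and its macrophage markers summed to 25222 CPM against 4616 and 9614 CPM. In treated splenic M-MDSC, library 4 held 11758 CPM of B cell markers against 115 to 363 CPM in the other 3. Marker sums also differed with treatment. In splenic PMN-MDSC the erythroid sum was 61.6 to 157 CPM untreated and 0 to 5.22 CPM treated, the neutrophil sum 20250 to 39945 and 46158 to 71187 CPM, and the macrophage sum 404 to 1257 and 79.3 to 212 CPM. In splenic M-MDSC the monocyte sum was 3710 to 6410 CPM untreated and 2091 to 2640 CPM treated, the macrophage sum 577 to 719 and 181 to 382 CPM, the erythroid sum 18.1 to 47.6 and 0.606 to 2.66 CPM, and the endothelial sum 19.6 to 28.5 and 110.1 to 268 CPM. The monocyte sum (6 of 7 genes found) was 7691 to 10537 CPM in untreated and 976 to 3605 CPM in treated tumor M-MDSC, and 3645 to 7201 CPM and 821 to 1696 CPM in tumor PMN-MDSC. Smaller sums that did not overlap between untreated and treated libraries were those of T cells (12.9 to 20.3 and 1.51 to 5.92 CPM), dendritic cells (21.7 to 37.5 and 0.505 to 5.33 CPM) and endothelium (29.8 to 73.8 and 13.04 to 24.3 CPM) in splenic PMN-MDSC. In tumor these were endothelium in M-MDSC (20.4 to 41.3 and 69.998 to 143 CPM) and B cells in PMN-MDSC (47.5 to 97.4 and 16.6 to 43.3 CPM). Tests of members after treatment in tumor M-MDSC and splenic M-MDSC are given with and without these libraries. The part that other cell types had in any difference was not tested, and fewer cells of a type cannot be told apart from less RNA per cell.

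OAS enzymes bind double-stranded RNA and then join ATP into 2′-5′ linked oligoadenylates. These act as second messengers in antiviral defence, and the genes are among the classical targets of type I interferon. Oas1a and Oas1g are small active enzymes, Oas2 and Oas3 are built from repeated OAS domains, and Oasl1 and Oasl2 carry ubiquitin-like domains at their ends.

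The promoter letters of 4 members are shown because their windows hold a shared element known from interferon-stimulated genes. The window was the 250 bases before the transcript start in RefSeq (GRCm38.p6), and 6 of the 8 members had an entry. GAAANNGAAA, the core of the interferon-stimulated response element, was present on either strand in 4 of these 6 windows, and in 2.98% of all 32851 promoter windows. Capitals mark the matched letters, read 5′ to 3′ on the strand of the gene.
Oas1a: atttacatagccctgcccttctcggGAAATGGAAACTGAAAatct
Oas1g: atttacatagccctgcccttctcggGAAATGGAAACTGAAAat
Oas1c: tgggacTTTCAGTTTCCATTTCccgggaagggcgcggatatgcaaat
Oas3: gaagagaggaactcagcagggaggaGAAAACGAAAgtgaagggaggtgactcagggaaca

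The Oas1a stretch is chr5:120907526-120907570, with its capitals 20 to 5 bases before the start. The Oas1g stretch is chr5:120887614-120887656, with capitals 18 to 3 bases before the start. In both, the 16 capitals hold 2 overlapping matches, and the windows of these genes were identical at 100 of 110 aligned bases. The Oas1c stretch is chr5:120812588-120812634, and its capitals, 114 to 99 bases before the Oas1c start, are the reverse complement of the same 16 letters. On the other strand those letters lie 7 to 22 bases before the annotated start of Oas1b, so the pair of genes shares 1 copy between them. The same 16 letters stood in 7 of the 32851 windows, those of Oas1a, Oas1c, Oas1g and 4 windows of Apol9a and Apol9b. The Oas3 stretch is chr5:120777700-120777759, with a single match 75 to 66 bases before the start. All 4 stretches are written on the minus strand. The windows of Oasl1 and Oasl2 held no match, which says only that these letters are not in this window. TTCNNNGAA, the gamma-activated sequence, was present on either strand in 1 of the 6 windows, that of Oas1a, and in 7.02% of all windows.

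The treatment comparison asked which genes changed after poly(I:C)c in each MDSC type and organ. The test, run where a gene averaged 25 counts or more in the libraries of a comparison, was edgeR's two-sided quasi-likelihood test, with a gene called at an adjusted p under 0.05. In splenic PMN-MDSC 6 of 7 tested members were higher after treatment, against 6.1% of all tested genes called higher. In tumor PMN-MDSC 7 of 7 were higher against 2.29% of all genes, and in splenic M-MDSC 7 of 7 against 10.7%. In tumor M-MDSC 3 of 6 were higher against 1.82% of all genes. No tested member was lower in any of the 4 comparisons. Tumor PMN-MDSC held the macrophage markers given above in both untreated and treated libraries. The median log2 fold change of the tested members was 1.99, 1.94, 1.89 and 1.61 in the same order, where the median of all tested genes was 0.014, 0.0063, −0.012 and −0.00054. Oas1c did not reach 25 counts and was tested in none of them, and Oas1b was not tested in tumor M-MDSC. The study's threshold asks for an adjusted p under 0.001 together with a 2-fold difference, and the study set it on DESeq2. Set here on edgeR's test, it was passed by 1 of 7 members (Oas1g), 2 of 7 (Oas3 and Oasl1), 5 of 7 (all but Oas1a and Oas1b) and 0 of 6. Of all genes 0.0413%, 0.241%, 2.47% and 0.012% passed, which is 3, 20, 218 and 1 genes. The study reported more genes in each comparison, and no count was made here with DESeq2 at that threshold. For the count of 0 in tumor M-MDSC, edgeR gave 4 members at an unadjusted p under 0.05 and DESeq2 4 at an adjusted p under 0.05.

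Over all 8 members, every treated library stood above every untreated one for 7 members in splenic PMN-MDSC (all but Oasl2), for 7 in tumor PMN-MDSC (all but Oas1c), for 8 in splenic M-MDSC and for 5 in tumor M-MDSC (all but Oas1a, Oas1c and Oas2). Of the members that were tested the same held for 6 of 7, 7 of 7, 7 of 7 and 4 of 6, and of all tested genes for 10.7%, 6.93%, 13.5% and 10.1%. Libraries within a group tended to rank alike across members. Treated library 1 of splenic PMN-MDSC was lowest for 7 of 8 members, treated library 3 of tumor PMN-MDSC for 7, and treated library 2 of tumor M-MDSC, the library with little Ly6c2, for 7. Treated library 2 of splenic M-MDSC was highest for 7 members and treated library 4 of tumor PMN-MDSC for 7.

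**Figure D1:**
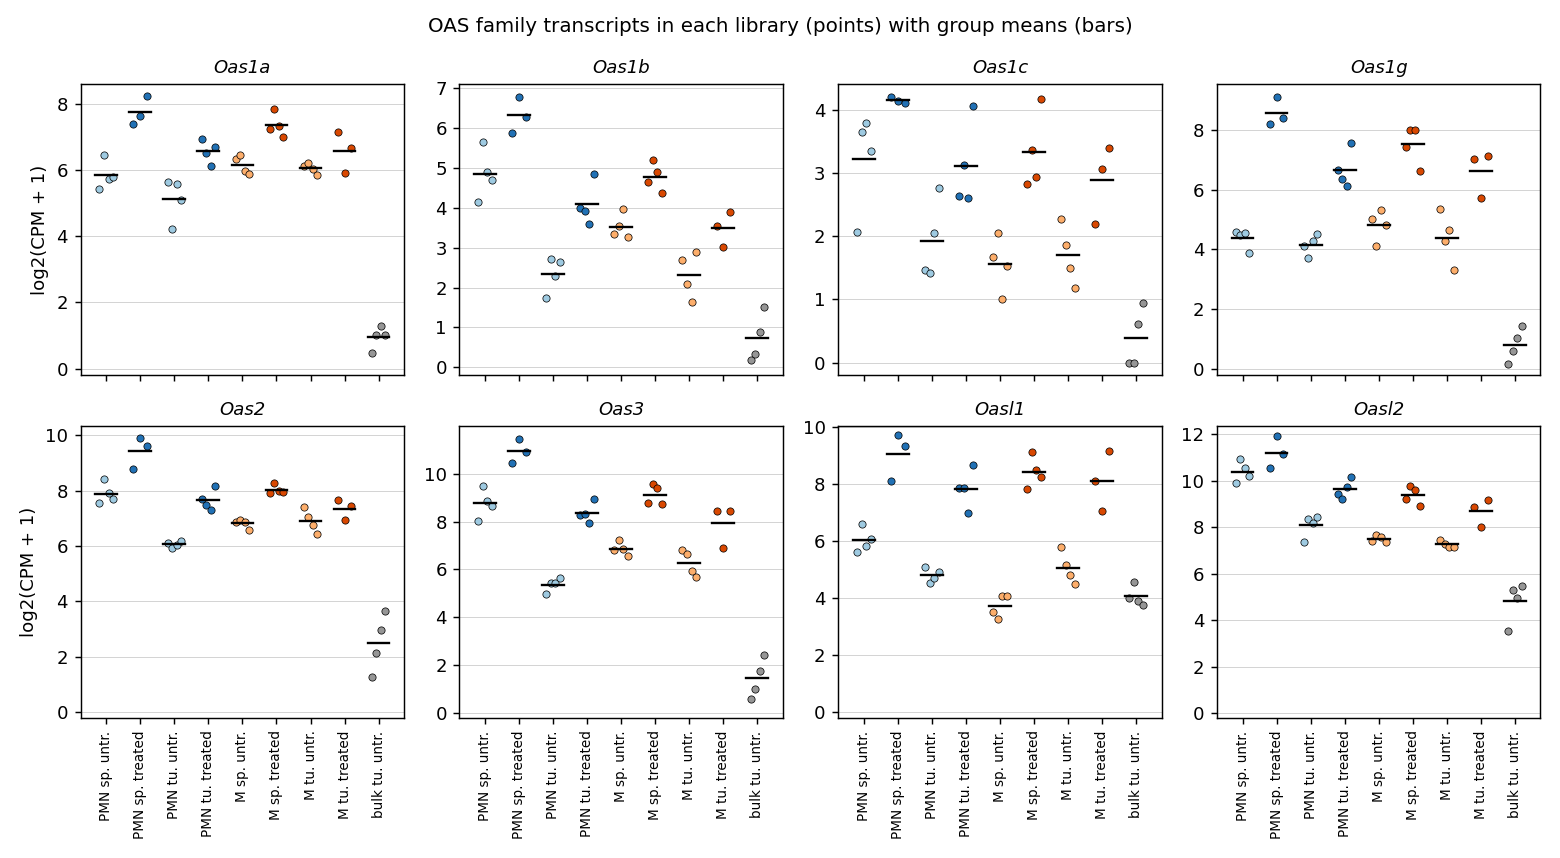
Level of each OAS family member as log2(CPM + 1) on one TMM scale over 34 libraries, in 9 groups (PMN, PMN-MDSC; M, M-MDSC; sp., spleen; tu., tumor; untr., untreated); points are libraries and bars are group means. Treated splenic PMN-MDSC have the highest mean for all 8 members, and bulk tumor the lowest for 7 of them.

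Oas1g, a small enzyme of the Oas1 cluster, had the largest fold of the members in splenic PMN-MDSC. There it stood at 22.8, 21.6, 22.5 and 13.8 CPM in the untreated and at 289, 545 and 337 CPM in the treated libraries, a 19.6-fold rise (log2 fold change 4.30, SE 0.29, adjusted p = 4.36e-04). The groups were far apart, and 1 untreated library was well below the other 3. In tumor PMN-MDSC it stood at 16.4, 12.2, 18.3 and 22.01 CPM untreated and 98.98, 79.9, 68.97 and 189 CPM treated, a 6.15-fold rise (log2 fold change 2.62, SE 0.33, adjusted p = 0.00177). In splenic M-MDSC the values were 31.5, 16.5, 39.3 and 27.3 CPM and 172, 256, 251 and 96.9 CPM, a 6.58-fold rise (log2 fold change 2.72, SE 0.34, adjusted p = 7.20e-04). The groups did not overlap in either comparison, and the treated libraries spread more widely than the untreated ones. In tumor M-MDSC Oas1g stood at 39.7, 18.4, 24.1 and 8.94 CPM untreated and 129, 52.3 and 138 CPM treated (log2 fold change 2.15, SE 0.45, adjusted p = 0.0423). Without treated library 2, the lowest treated value at 52.3 CPM, the log2 fold change was 2.47 (edgeR adjusted p = 0.00863), while leaving out any other library ended the call (adjusted p 0.0582 to 0.137). The untreated means of Oas1g in the 4 MDSC groups ran from 17.2 to 28.6 CPM.

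Oas1a, another small enzyme of the Oas1 cluster, had a smaller log2 fold change than Oas1g in each of the 4 comparisons, a difference that was not tested. In splenic PMN-MDSC it stood at 42.4, 86.2, 52.3 and 54.00 CPM untreated and 167, 198 and 298 CPM treated (log2 fold change 1.99, SE 0.27, adjusted p = 0.00426). In tumor PMN-MDSC the values were 48.7, 17.7, 46.8 and 33.5 CPM and 121, 90.5, 69.4 and 103 CPM (log2 fold change 1.36, SE 0.29, adjusted p = 0.0314), and in splenic M-MDSC 79.6, 86.02, 62.3 and 57.4 CPM and 151, 230.2, 161 and 127 CPM (log2 fold change 1.20, SE 0.19, adjusted p = 0.00264). All treated libraries were above all untreated ones in these 3 comparisons. The call in tumor PMN-MDSC was lost without untreated library 3 (adjusted p = 0.0648), untreated library 4 (0.102), treated library 1 (0.057) or treated library 2 (0.0571), and its adjusted p over the libraries left out reached at most 0.102. In tumor M-MDSC Oas1a stood at 69.1, 72.8, 64.5 and 56.2 CPM untreated and 142, 59.6 and 101 CPM treated, and the groups overlapped through treated library 2 (log2 fold change 0.60, 95% confidence interval −0.018 to 1.22, adjusted p = 0.272). Without that library the log2 fold change was 0.88 and Oas1a was called (adjusted p = 0.0445).

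Oas1b, the polymorphic pseudogene whose full-length form is known for resistance to flaviviruses, was tested and called in 3 of the 4 comparisons. It stood at 16.7, 49.6, 28.97 and 24.9 CPM untreated and 58.3, 109 and 77.3 CPM treated in splenic PMN-MDSC (log2 fold change 1.53, SE 0.33, adjusted p = 0.0223). In tumor PMN-MDSC it stood at 2.35, 5.54, 3.9 and 5.26 CPM and 14.9, 14.1, 11.04 and 27.8 CPM (log2 fold change 1.94, SE 0.38, adjusted p = 0.0189), and in splenic M-MDSC at 9.18, 10.6, 14.6 and 8.66 CPM and 24.2, 35.9, 28.8 and 19.7 CPM (log2 fold change 1.31, SE 0.23, adjusted p = 0.00391). No treated library fell below an untreated one in these comparisons. The call in splenic PMN-MDSC was lost without untreated library 3 (edgeR adjusted p = 0.053) or 4 (0.0741) or treated library 2 (0.0655) or 3 (0.0732), and that in tumor PMN-MDSC without untreated library 1 (0.0639), 3 (0.0772) or 4 (0.0509). In tumor M-MDSC Oas1b held 5 to 10 counts per untreated library and 27 to 41 per treated library, at 5.44, 3.28, 2.1 and 6.38 CPM and 10.7, 7.11 and 13.96 CPM, again without overlap, but below the count minimum.

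Oas1c, whose start lies beside that of Oas1b on the other strand, had the lowest counts of the 8. Its means were 9.18 ± 4.29 CPM untreated (SD, n = 4) and 16.7 ± 0.628 CPM treated (SD, n = 3) in splenic PMN-MDSC, from 11 to 32 and 20 to 32 counts per library. In tumor PMN-MDSC the means were 3.07 ± 1.9 CPM and 8.39 ± 4.96 CPM, with 2 treated values inside the untreated range. In splenic M-MDSC they were 2.06 ± 0.877 CPM and 9.76 ± 5.05 CPM without overlap, and in tumor M-MDSC 2.39 ± 1.1 CPM and 6.8 ± 3.02 CPM with overlap at the lowest treated library. All 4 treated means were above the untreated ones, but Oas1c was below the count minimum of the test. With no filter on low counts edgeR called it after treatment in splenic M-MDSC and not in the other 3 comparisons. A count of 3, the limit that a count of 0 allows, corresponded to 0.565 to 3.83 CPM over the MDSC libraries, which is counting error only, since reads amplified without molecular identifiers are not independent molecules.

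Oas2, which holds repeated OAS domains, rose in 3 of the 4 comparisons. It stood at 185, 338, 241 and 209 CPM untreated and 443, 951 and 785 CPM treated in splenic PMN-MDSC (log2 fold change 1.63, SE 0.27, adjusted p = 0.00924), and at 68.7, 59.8, 64.4 and 71.8 CPM and 209, 178, 157 and 289 CPM in tumor PMN-MDSC (log2 fold change 1.63, SE 0.20, adjusted p = 0.00149). In splenic M-MDSC it stood at 117, 122, 117 and 95.1 CPM and 238, 308, 254 and 246 CPM (log2 fold change 1.19, SE 0.12, adjusted p = 2.50e-04). The untreated libraries of tumor PMN-MDSC lay close together, and none of these 3 comparisons overlapped. In tumor M-MDSC Oas2 stood at 167, 131, 108 and 85.5 CPM untreated and 201, 123 and 173 CPM treated, so that 2 untreated libraries were above the lowest treated one (log2 fold change 0.41, 95% confidence interval −0.17 to 0.997, adjusted p = 0.434). Without treated library 2 the log2 fold change was 0.59 and still not called (edgeR adjusted p = 0.261).

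Oas3, the longest OAS enzyme and the one known for making long oligoadenylates from long double-stranded RNA, was second to Oasl2 among the members in treated splenic PMN-MDSC when levels were divided by exon length. It stood there at 262, 719, 459.5 and 405 CPM untreated and 1416, 2787 and 1902 CPM treated (log2 fold change 2.20, SE 0.33, adjusted p = 0.00618). Tumor PMN-MDSC went from 30.5, 42.1, 41.8 and 49.3 CPM to 309, 315, 246 and 492 CPM, an 8.14-fold rise with the smallest adjusted p of the members in that comparison (log2 fold change 3.03, SE 0.24, adjusted p = 1.37e-04). In splenic M-MDSC it stood at 112, 149, 115 and 92.3 CPM and 438, 768, 668 and 419.8 CPM (log2 fold change 2.26, SE 0.22, adjusted p = 1.93e-04). Each treated library was above all untreated ones in these 3 comparisons. In tumor M-MDSC the values were 113, 99.7, 59.5 and 49.8 CPM untreated and 352, 119 and 347 CPM treated, without overlap but not called (log2 fold change 1.74, 95% confidence interval 0.80 to 2.67, adjusted p = 0.058). Without treated library 2, at 119 CPM, Oas3 was called (edgeR adjusted p = 0.00735; log2 fold change 2.10). DESeq2 also called it (adjusted p = 0.00186), and over its alternatives the adjusted p ranged from 6.31e-10 to 0.172.

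Oasl1, which lacks the synthetase activity and is known to limit translation of Irf7, was called in all 4 comparisons. In splenic M-MDSC it stood at 10.5, 8.64, 15.9 and 16.01 CPM untreated and 228, 559, 359 and 301 CPM treated, a 27.02-fold rise and the largest fold of any member in any of the 4 comparisons (log2 fold change 4.76, SE 0.32, adjusted p = 2.67e-05). Without the library rich in B cell markers its log2 fold change was 4.85 (edgeR adjusted p = 5.97e-05). In splenic PMN-MDSC it stood at 47.8, 97.03, 55.9 and 66.3 CPM and 278, 838 and 640.3 CPM (log2 fold change 3.18, SE 0.36, adjusted p = 0.0028). The tumor PMN-MDSC libraries stood at 33.4, 22.1, 24.98 and 29.2 CPM and 232, 231, 127 and 403 CPM (log2 fold change 3.15, SE 0.32, adjusted p = 6.84e-04). The groups were separated in each case, although the treated PMN-MDSC libraries of both organs spread widely. In tumor M-MDSC Oasl1 stood at 54.97, 34.8, 27.2 and 21.7 CPM untreated and 276, 134 and 571 CPM treated, a 9.22-fold rise (log2 fold change 3.21, SE 0.50, adjusted p = 0.0174). Without treated library 2 its log2 fold change was 3.59 (adjusted p = 0.00172), and without untreated library 2, 3 or 4 the adjusted p was 0.0573 to 0.0711.

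Oasl2, a ubiquitin-like member that kept the synthetase activity, had the highest level per exon length of the members in untreated PMN-MDSC of both organs. In splenic PMN-MDSC it stood at 945, 1938, 1494 and 1166 CPM untreated and 1481, 3896 and 2291 CPM treated, and 2 untreated libraries were above the lowest treated one (log2 fold change 0.93, 95% confidence interval 0.17 to 1.68, adjusted p = 0.108). It was called there without treated library 1 (log2 fold change 1.19, adjusted p = 0.0416) and by DESeq2 (adjusted p = 0.0415), and its adjusted p ranged from 0.00622 to 0.297 over the alternatives. In tumor PMN-MDSC it stood at 165, 324, 289 and 345 CPM and 680.2, 585, 854 and 1156 CPM (log2 fold change 1.52, SE 0.27, adjusted p = 0.0128), a call lost without untreated library 3 (adjusted p = 0.058). The treated libraries there reached the range of untreated splenic PMN-MDSC only in library 4. In splenic M-MDSC it stood at 167, 202, 193 and 163 CPM and 601, 875, 779 and 487 CPM (log2 fold change 1.89, SE 0.18, adjusted p = 1.48e-04). In tumor M-MDSC it stood at 176, 155, 139.9 and 142 CPM and 474, 254 and 567 CPM (log2 fold change 1.48, SE 0.27, adjusted p = 0.0264). Without treated library 2 the last log2 fold change was 1.76 (adjusted p = 0.00172), and without any untreated library or treated library 3 the call was lost (adjusted p 0.0719 to 0.0985).

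The count in tumor M-MDSC changed when single libraries were left out, which also left the test with fewer libraries. It was 5 of 6 members without treated library 2 (Oas1a, Oas1g, Oas3, Oasl1 and Oasl2), 1 without untreated library 1 or treated library 3 (Oasl1), and 0 without untreated library 2, 3 or 4. In tumor PMN-MDSC it was 4 without untreated library 3 (Oas1g, Oas2, Oas3 and Oasl1). In splenic M-MDSC it was 7 of 7 with each library left out in turn, including the library rich in B cell markers, without which the log2 fold changes were 1.34 for Oas1a, 1.46 for Oas1b, 2.96 for Oas1g, 1.23 for Oas2, 2.40 for Oas3, 4.85 for Oasl1 and 2.04 for Oasl2.

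**Figure D2:**
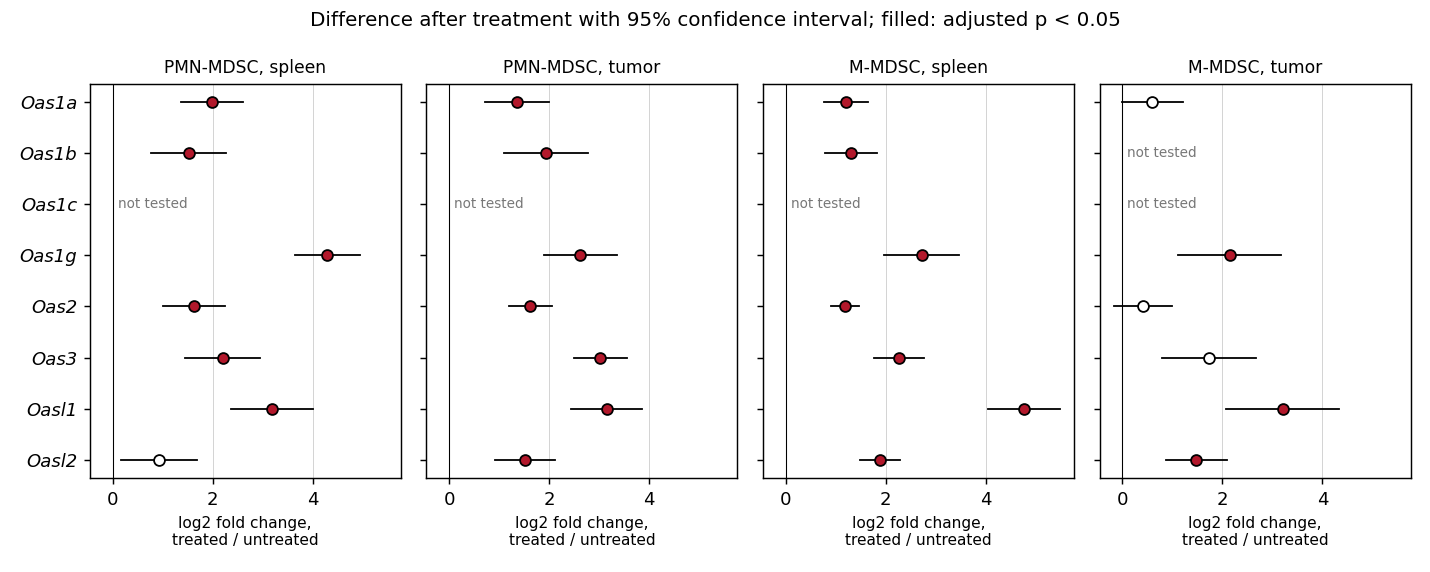
Treated against untreated log2 fold change of each OAS family member from edgeR, in 4 panels by cell type and organ; lines are 95% confidence intervals and filled points have an adjusted p under 0.05. All tested members lie to the right of 0 in each panel, from 0.41 for Oas2 in tumor M-MDSC to 4.76 for Oasl1 in splenic M-MDSC.

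Whether the treatment effect differed between organs or cell types was tested with interaction terms. Between spleen and tumor in PMN-MDSC, 0 of 7 members were called against 3.5% of all genes, with 1 at an unadjusted p under 0.05 and 1 called by DESeq2, in both cases Oas1g. Its log2 fold change was smaller in tumor by 1.67 (95% confidence interval −2.61 to −0.72 for tumor minus spleen, adjusted p = 0.051). It was called without spleen treated library 1 (0.0368) and without tumor treated library 4 (0.00842), and its adjusted p over the alternatives ranged from 9.73e-04 to 0.118. Between spleen and tumor in M-MDSC, 0 of 7 members were called by edgeR against 0.79% of all genes, with 2 at an unadjusted p under 0.05 and 0 by DESeq2. There the difference for Oasl1 was −1.54 (95% confidence interval −2.84 to −0.24, adjusted p = 0.25), and it was −1.17 without tumor treated library 2 (adjusted p = 0.474) and −1.64 without spleen treated library 4 (adjusted p = 0.239). With no filter on low counts it was −1.57 and was called (edgeR adjusted p = 2.40e-04), which was 1 call in 21 alternatives.

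Between PMN-MDSC and M-MDSC in spleen, 1 of 7 members was called against 10.9% of all genes. Oas1g rose more in PMN-MDSC, by 1.66 on the log2 scale (SE 0.47, 95% confidence interval 0.67 to 2.66, adjusted p = 0.0348). For Oasl1 the difference had the other sign, −1.48 (95% confidence interval −2.55 to −0.42, adjusted p = 0.0709), and it was not called, although it was called in 5 of 21 alternatives, among them DESeq2 (0.0257), upper-quartile scaling (0.0364) and leaving out PMN-MDSC untreated library 3 (0.0478) or treated library 2 (0.0443), with adjusted p from 0.000312 to 0.132 over the 21. Without the library rich in B cell markers the values were 1.45 for Oas1g (adjusted p = 0.0421) and −1.55 for Oasl1 (0.0791). The Oas1g call was lost in one fit over all groups (0.0631), under upper-quartile scaling (0.0522) and on leaving out PMN-MDSC untreated library 3 or 4 or treated library 2 or 3, or M-MDSC untreated library 1, 3 or 4 or treated library 1 (0.0529 to 0.0913), and its adjusted p ranged from 3.59e-04 to 0.0913 over all alternatives. Without PMN-MDSC treated library 1 the members called were 2, Oas1g and Oas2, and without treated library 2 they were 2, Oasl1 and Oasl2. Between PMN-MDSC and M-MDSC in tumor, 0 of 6 members were called by edgeR against 0.0239% of all genes, with 2 at an unadjusted p under 0.05 and 0 by DESeq2. The largest difference was that of Oas3, 1.28 (95% confidence interval 0.23 to 2.34, adjusted p = 0.529), and it was 0.92 without tumor treated library 2 of M-MDSC (adjusted p = 0.862). The interaction tests share libraries with the treatment comparisons and with each other.

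Of the genes listed as limits of the pathway, Abce1, a ribosome recycling factor, had means of 24.8 and 7.33 CPM in untreated and treated splenic PMN-MDSC (log2 fold change −1.84, adjusted p = 0.134) and was called in none of the 4 treatment comparisons. Pde12, a phosphodiesterase that degrades the oligoadenylates, rose in splenic M-MDSC from 23.4 to 37.1 CPM (log2 fold change 0.65, SE 0.15, adjusted p = 0.0137) and was called in none of the other 3. The paralogs Oas1d, Oas1e, Oas1f and Oas1h held 0 to 4 counts per library and none was tested.

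Among 18 listed genes of the pathway outside the family, 8 of 16 tested were higher after treatment in splenic PMN-MDSC, 9 of 17 in tumor PMN-MDSC, 10 of 17 in splenic M-MDSC and 2 of 17 in tumor M-MDSC, and none was lower. Of all tested genes 6.1%, 2.29%, 10.7% and 1.82% were called higher in these comparisons. Other proteins that bind double-stranded RNA or pass on its signal made up 6 of 6, 6 of 7, 6 of 7 and 1 of 7 of these. Interferon signalling made up 2, 3, 3 and 1 of 7, and the genes that limit the pathway (Abce1, Pde12 and Akap7) 0, 0, 1 and 0 of 3. For those last counts of 0, edgeR gave 1 gene each at an unadjusted p under 0.05. Irf7, the interferon regulatory factor, rose in all 4, with log2 fold changes of 2.75, 3.88, 2.95 and 3.01. Ddx58, the RNA sensor RIG-I, also rose in all 4, by 1.65, 1.58, 1.98 and 1.51 on the log2 scale.

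In untreated mice tumor PMN-MDSC held less of most members than splenic PMN-MDSC. Of 7 tested members 5 were lower in tumor. Among all 7971 tested genes 59.1% were called in either direction, and 2368 genes were called lower in tumor. Oas3 fell from 461 ± 191 CPM in spleen to 40.9 ± 7.75 CPM in tumor (mean ± SD, n = 4 each; log2 fold change −3.32, SE 0.29, adjusted p = 1.31e-05). Oas1b fell from 30.04 ± 13.99 to 4.26 ± 1.46 CPM (log2 fold change −2.60, SE 0.39, adjusted p = 2.71e-04) and Oasl2 from 1386 ± 432 to 281 ± 80.3 CPM (log2 fold change −2.14, SE 0.28, adjusted p = 1.25e-04). For all 3, the spleen and tumor libraries did not overlap. Oas2 (−1.71, adjusted p = 5.63e-05) and Oasl1 (−1.10, adjusted p = 0.00265) were lower as well on the log2 scale. Oas1a (log2 fold change −0.49, 95% confidence interval −1.18 to 0.20, adjusted p = 0.199) and Oas1g (−0.062, interval −0.64 to 0.51, adjusted p = 0.852) were not called. The neutrophil and macrophage markers given above moved between these same groups.

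In untreated M-MDSC 1 of 6 tested members differed between tumor and spleen, against 28.4% of all genes. Oasl1 stood at 10.5, 8.64, 15.9 and 16.01 CPM in spleen and 54.97, 34.8, 27.2 and 21.7 CPM in tumor, higher in each tumor library (log2 fold change 1.43, SE 0.31, adjusted p = 0.00411). The other 5 had log2 fold changes from −0.52 for Oas3 (95% confidence interval −1.05 to 0.012, adjusted p = 0.136) to 0.14 for Oas2 (−0.27 to 0.54, adjusted p = 0.621). Oas3 was called as lower in tumor without tumor untreated library 1 (edgeR adjusted p = 0.047) and with no filter on low counts (0.0199), and Oasl2 was called as lower under upper-quartile scaling (0.04), with adjusted p over the 14 alternatives from 0.0199 to 0.326 for Oas3 and from 0.04 to 0.628 for Oasl2. Oas1b was below the count minimum here, at 8.66 to 14.6 CPM in spleen and 2.10 to 6.38 CPM in tumor, without overlap, and it was called as lower in tumor with no filter. Between these groups macrophage markers went from 577 to 719 CPM in spleen to 3111 to 7636 CPM in tumor, and neutrophil markers from 2649 to 6147 CPM in spleen to 223 to 665 CPM in tumor.

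Between the cell types in untreated spleen 6 of 7 tested members differed, against 64.4% of all genes, and 5 of the members were higher in PMN-MDSC. Among all 8579 tested genes 2655 were called higher and 2868 lower in PMN-MDSC. Oasl2 was 6.58-fold higher, at 1386 ± 432 CPM in PMN-MDSC and 181 ± 19.2 CPM in M-MDSC (log2 fold change 2.72, SE 0.19, adjusted p = 4.69e-06). Oasl1 (2.13, adjusted p = 7.78e-05), Oas3 (1.75, adjusted p = 2.71e-04), Oas1b (1.23, adjusted p = 0.0052) and Oas2 (0.89, adjusted p = 0.001) were also higher on the log2 scale. Oas1a was lower in PMN-MDSC (log2 fold change −0.50, SE 0.20, adjusted p = 0.0476), a call lost in 9 of 13 alternatives, where its adjusted p ranged from 0.00909 to 0.174. Oas1g was not called (log2 fold change −0.69, 95% confidence interval −1.31 to −0.072, adjusted p = 0.0501). It was called as lower in PMN-MDSC in 4 of 13 alternatives, over which its adjusted p ranged from 0.0117 to 0.151. The small Oas1a and Oas1g enzymes thus had the sign opposite to the other 5 tested members. Some marker sums of other cell types did not overlap between these groups. In PMN-MDSC and M-MDSC they were 12.9 to 20.3 and 1.18 to 3.50 CPM for T cells, and 61.6 to 157 and 18.1 to 47.6 CPM for erythroid cells. For dendritic cells they were 21.7 to 37.5 and 4.32 to 21.1 CPM, and for endothelium 29.8 to 73.8 and 19.6 to 28.5 CPM.

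In untreated tumor 3 of 6 tested members differed between the cell types, against 13% of all genes. Oas2 (log2 fold change −0.88, SE 0.20, adjusted p = 0.011) and Oas3 (log2 fold change −0.96, SE 0.26, adjusted p = 0.0268) were lower in PMN-MDSC, and Oasl2 was higher (log2 fold change 0.90, SE 0.21, adjusted p = 0.0126). Oas2 and Oas3 were thus on the other side of M-MDSC than in spleen. Oas1a was not called (edgeR adjusted p = 0.058) but was called as lower in PMN-MDSC in 3 of 13 alternatives. These were DESeq2 (0.031), no filter on low counts (0.00258) and leaving out PMN-MDSC library 1 (0.0334). The Oas3 call was lost in 6 of 14 alternatives, namely without PMN-MDSC library 1, 2 or 3, without M-MDSC library 1 or 2, and in one fit over all groups, where the Oasl2 call was lost too (adjusted p = 0.0536, the highest of its 14 alternatives, the lowest being 0.000358). Macrophage markers summed to 9564 to 12659 CPM in untreated tumor PMN-MDSC and to 3111 to 7636 CPM in untreated tumor M-MDSC.

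**Figure D3:**
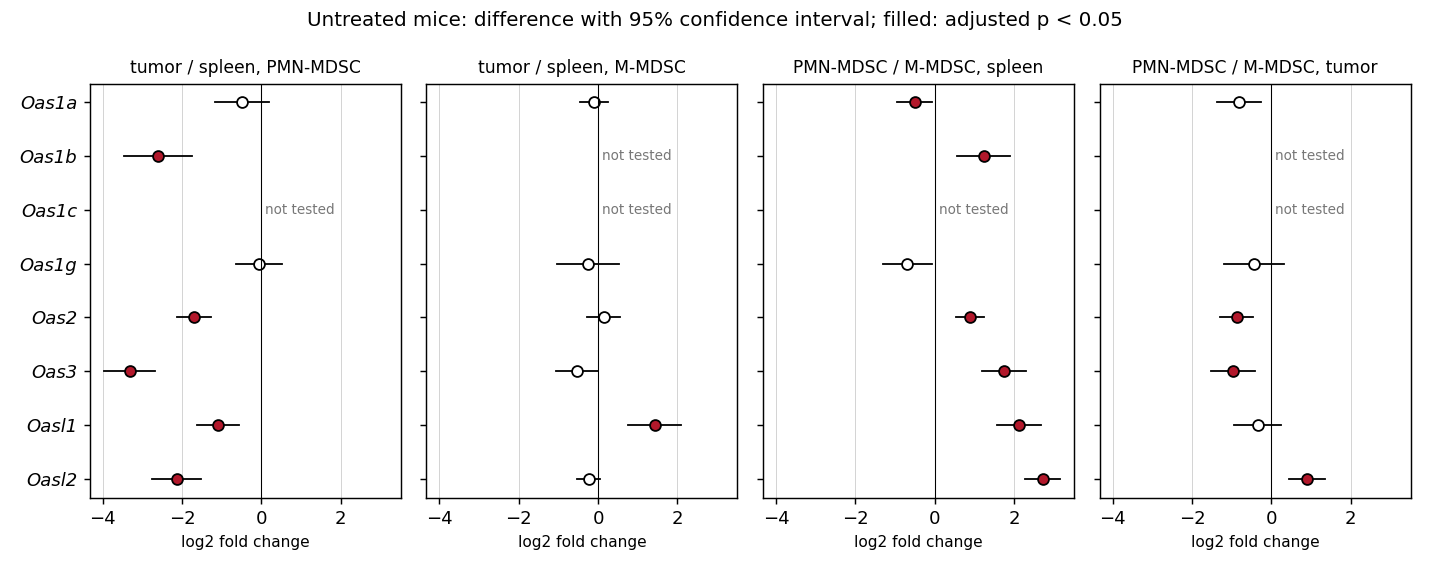
Log2 fold changes of OAS family members in untreated mice between tumor and spleen (PMN-MDSC, M-MDSC) and between PMN-MDSC and M-MDSC (spleen, tumor); lines are 95% confidence intervals and filled points have an adjusted p under 0.05. Oas3 runs from −3.32 for tumor over spleen in PMN-MDSC to 1.75 for PMN-MDSC over M-MDSC in spleen, while the 2 Oas1g values of tumor over spleen lie close to 0, at −0.062 and −0.25.

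Bulk tumor of untreated mice held little RNA of most members. All 5 tested members were lower in bulk tumor than in untreated tumor PMN-MDSC. Of the 11138 genes tested there 69.5% were called in either direction, and 3711 were called lower in bulk tumor. All 6 tested members were lower in bulk tumor than in untreated tumor M-MDSC. There 69.2% of 11022 genes were called in either direction, and 3420 were called lower in bulk tumor. Oas1a stood at 0.39, 1.03, 1.46 and 1.02 CPM in the 4 bulk libraries, against 17.7 to 48.7 CPM in PMN-MDSC (log2 fold change −5.39, SE 0.42, adjusted p = 3.98e-07) and 56.2 to 72.8 CPM in M-MDSC (log2 fold change −6.15, SE 0.32, adjusted p = 3.22e-08). Oas3 stood at 0.52, 1.03, 2.4 and 4.41 CPM, −4.38 and −5.28 on the log2 scale relative to the same groups. Oasl1 was the exception in size, at 15.2, 22.97, 13.97 and 12.5 CPM, with log2 fold changes of −1.003 (adjusted p = 0.00235) and −1.28 (adjusted p = 0.00279). Oasl2 stood at 10.5, 38.97, 30.4 and 43.2 CPM and Oas2 at 1.43, 3.36, 6.88 and 11.6 CPM. Bulk library 1 was lowest for 7 of 8 members and library 4 highest for 6. Oas1c was at 0 counts in 2 bulk libraries, where a count of 0 allows up to 0.390 and 0.774 CPM. In bulk tumor the macrophage markers summed to 777 to 1288 CPM and the neutrophil markers to 10.3 to 23.2 CPM. Epithelial or tumor cell markers (2 of 5 listed genes found) summed there to 605 to 844 CPM and fibroblast markers to 801 to 1059 CPM. These sums were 13.3 to 141 and 24.6 to 44.3 CPM in untreated tumor PMN-MDSC, and 3.27 to 59.7 and 1.28 to 30.8 CPM in untreated tumor M-MDSC.

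Ordered by mean CPM, treated splenic PMN-MDSC came first for all 8 members. Of 64 neighbouring pairs of groups in these orders, 48 overlapped in their libraries. For Oas3 the top group, at 2035 CPM, did not overlap the next, treated splenic M-MDSC at 573 CPM, which overlapped untreated splenic PMN-MDSC at 461 CPM. For Oasl1 the 4 treated groups, at 248 to 585 CPM, lay above all 5 untreated groups, at 12.8 to 66.8 CPM, without overlap between the lowest treated and the highest untreated group. For Oasl2 untreated splenic PMN-MDSC, at 1386 CPM, came second, ahead of 3 treated groups, and overlapped treated tumor PMN-MDSC.

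To compare members with each other, levels were divided by exon length (FPKM on the same TMM scale). Summed over the 8 members, the mean was 422 ± 135 FPKM in untreated and 1408 ± 526 FPKM in treated splenic PMN-MDSC (mean ± SD), 105 ± 12.7 and 428 ± 136 in tumor PMN-MDSC, 132 ± 12.7 and 575 ± 161 in splenic M-MDSC, and 124 ± 28.3 and 376 ± 165 in tumor M-MDSC, against 14.05 ± 4.19 FPKM in bulk tumor. The make-up of this sum differed between groups. Oasl2 made up 51.6% ± 1.82 of it in untreated and 27.8% ± 3.22 in treated splenic PMN-MDSC. In splenic M-MDSC its share was 21.6% ± 1.34 and 18.8% ± 1.38. Oasl1 went from 3.8% ± 1.4 untreated to 23.8% ± 4.05 treated in splenic M-MDSC, from 10.4% ± 1.92 to 31.3% ± 9.38 in tumor M-MDSC, and from 10.1% ± 2.45 to 21.6% ± 4.65 in tumor PMN-MDSC. Oas1a went the other way in splenic M-MDSC, from 28.7% ± 3.76 to 15.5% ± 1.44, although its own level rose. Oas1g stood at 2.19% ± 0.857 and 12.1% ± 1.81 in splenic PMN-MDSC. In bulk tumor Oasl1 alone made up 47.5% ± 18.8 of the sum. These shares are descriptions and were not tested.

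**Figure D4:**
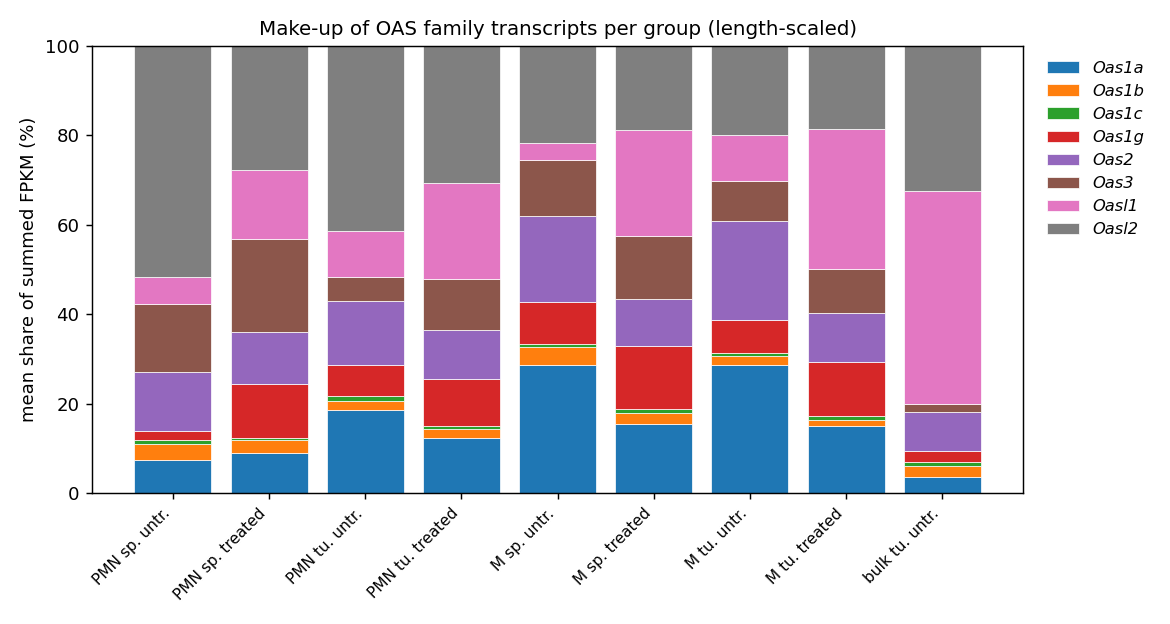
Mean share of each OAS family member in the summed FPKM of the 8 members, as stacked bars in percent for 9 groups. Oasl2 is the largest share in untreated splenic PMN-MDSC, at 51.6%, and Oasl1 is larger in each treated group than in its untreated counterpart, reaching 31.3% in tumor M-MDSC.

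On the log2(CPM + 1) scale, the mean over the 8 members was 6.42 ± 0.44 in untreated and 8.43 ± 0.45 in treated splenic PMN-MDSC (mean ± SD over libraries), 4.74 ± 0.23 and 6.74 ± 0.46 in tumor PMN-MDSC, 5.13 ± 0.087 and 7.24 ± 0.31 in splenic M-MDSC, 4.998 ± 0.38 and 6.46 ± 0.56 in tumor M-MDSC, and 1.97 ± 0.53 in bulk tumor.

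Over the 30 MDSC libraries the 7 members with enough counts were compared, among 8529 genes, with those outside the family by Pearson's r of log2(CPM + 1), given as a description, since the libraries share treatment groups and mice. Oas1g was most like Ube2l6 (r = 0.97), which encodes the E2 enzyme for Isg15, then Xaf1 and Usp18 (0.94 each). Oas3 was most like Cmpk2 (0.98), Adar and Rtp4 (0.97 each). Oasl1 was most like Rsad2 (0.95), Lgals9 and Isg15 (0.94 each), and Oasl2 most like Slfn1 (0.97), N4bp1 (0.96) and Slfn4 (0.95). Oas2 was most like Trim30a (0.97), Tdrd7 and Adar (0.95 each), Oas1b like Trim34a and H2-T24 (0.97 each) and Adar (0.96), and Oas1a like Dhx58, Ifi27l2a and Stat2 (0.94 each). Among the 21 pairs of these members r ran from 0.51 to 0.97 with a median of 0.80, and the pair of Oas2 and Oas3 stood at 0.97, above the r of Oas2 with each of the 3 genes named for it and above that of Oas3 with Adar and Rtp4.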

How the data were processed

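Total RNA of sorted MDSC and of bulk tumor was sequenced after rRNA depletion with a stranded low-input kit. The authors mapped reads to mm10 (GRCm38 in the submitters' processing notes, which name BWA) with ContextMap and deposited fragment counts per gene, made strand-specifically with featureCounts (Subread 1.4.6-p3) on Gencode v16. Counts were not normalized. Of 35 libraries 34 were used, and 1 with 10 counts was left out. None of the 48 pairs of libraries within groups was identical. Groups were taken from the sample labels and matched to the column names, which carry a cell type letter (G was read as PMN-MDSC), an organ, a treatment and a running number that matches no sample title. The mouse was not inferred from the order of the columns, so libraries of one mouse were not paired, fits between organs and cell types treat them as independent, and p-values measure the spread between libraries.

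Levels are CPM with TMM factors over all 34 libraries. Tests were made on the counts with edgeR 4.0.16 in R 4.3.3 (quasi-likelihood, robust, TMM, two-sided), on the libraries of each comparison, with genes of at least 25 mean counts and Benjamini-Hochberg adjustment over all genes tested. Interaction terms tested differences between effects. DESeq2 1.42.0, RLE and upper-quartile scaling, no filter, one fit over all groups, the stricter threshold of the study, the Oas1 genes summed into 1 row and each library left out were the alternatives. Precision is limited by the depth, 793070 to 4357105 counts per MDSC library. Overlapping genes held at most 58 counts per library (Gm13822, antisense to Oasl1), 8 (Gm43069 at Oas1c) and 2 (Gm43068 at Oas2). Gene positions are from the Gencode annotation of GRCm38, and promoters from RefSeq.

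The members and lists were chosen with earlier results of these data known. All 8 members are named with their values. Of a fixed list of pathway genes, of which 1 is not reported here, Abce1, Pde12, the other Oas1 paralogs and at most 6 others by smallest adjusted p are named, and, for each member with enough counts, the 3 genes outside the family with the highest r. Listed genes without a row in the table were not used here. The scripts were tested on simulated data.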

Additional observations from a re-analysis of the deposited data

Results flagged for a closer look

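Oas1g in untreated splenic PMN-MDSC was marked because 1 library was far from the others. Its lowest library stood at 13.8 CPM, while the other 3 stood at 21.6 to 22.8 CPM. This was the only case in 56 groups of 4 libraries examined, and chance marks about 1 in 20 such groups. The treatment call of Oas1g in splenic PMN-MDSC was kept with each library left out (edgeR adjusted p 2.56e-04 to 0.00424).

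Oas1g was also marked because its response to poly(I:C)c differed between PMN-MDSC and M-MDSC in spleen, by 1.66 on the log2 scale (edgeR interaction term, adjusted p = 0.0348). All 3 treated PMN-MDSC libraries, at 289 to 545 CPM, were above all 4 treated M-MDSC libraries, at 96.9 to 256 CPM. The call held in 10 of 20 alternatives, with adjusted p from 3.59e-04 to 0.0913, and was lost without the untreated PMN-MDSC library at 13.8 CPM (0.0684).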

How the results depend on the processing

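No paired analysis was possible because the names of the deposited columns carry a running number that is in no sample title. That limit applies to matching columns by name, the only matching used here. The running numbers come in the order of the titles, which would group the libraries by mouse. A pairing by that order could have been tried but was not. How a block by mouse would move the tests between organs and cell types is therefore not known. Of the members' treatment tests under each alternative other than the stricter threshold, 317 kept their side of the threshold, 26 were lost and 9 were gained. With 1 library left out in turn, the count of members called after treatment ranged from 5 to 7 (PMN-MDSC, spleen), 4 to 7 (PMN-MDSC, tumor), 7 to 7 (M-MDSC, spleen) and 0 to 5 (M-MDSC, tumor). For interaction terms it ranged from 0 to 1 (spleen and tumor in PMN-MDSC), 0 to 0 (in M-MDSC), 0 to 2 (PMN-MDSC and M-MDSC in spleen) and 0 to 0 (in tumor). In untreated mice it ranged from 5 to 5 and 1 to 2 (tumor and spleen in PMN-MDSC and M-MDSC) and from 5 to 6 and 2 to 3 (cell types in spleen and tumor), and for bulk tumor from 5 to 5 (PMN-MDSC) and 5 to 6 (M-MDSC). Under an adjusted p under 0.001 with at least a 2-fold change, 1, 2 and 0 members were called after treatment in splenic PMN-MDSC, tumor PMN-MDSC and tumor M-MDSC, 0 for the cell types' interaction in spleen, 0 between tumor and spleen in untreated M-MDSC, and 3 and 0 between the cell types in untreated spleen and tumor. The interaction between spleen and tumor in PMN-MDSC gave 1 call (Oas1g) under DESeq2, under RLE and with no filter, and that in M-MDSC 1 (Oasl1) with no filter. The interaction of the cell types in spleen gave 2 calls (Oas1g and Oasl1) under DESeq2 and with no filter, and 0 in one fit over all groups and with the Oas1 genes summed. That in tumor gave 2 (Oas2 and Oas3) with no filter. Tumor against spleen in M-MDSC gave 2 calls (Oasl1 and Oasl2) under upper-quartile scaling and 3 (Oas1b, Oas3 and Oasl1) with no filter, the cell types in untreated tumor gave 1 (Oas2) in one fit, and bulk tumor against PMN-MDSC gave 8 with no filter, where more members are tested. The members' mean log2 level was 7.90 in treated splenic PMN-MDSC and 5.39 in untreated splenic M-MDSC when scaled by library total, and 5.02 in the latter and 1.09 in bulk tumor with a pseudocount of 0.1. Upper-quartile scaling shifted the median log2 difference of all genes by −0.17 (treatment, splenic PMN-MDSC), −0.18 (cell types' interaction in spleen), 0.16 and −0.15 (tumor against spleen in PMN-MDSC and M-MDSC), −0.25 (cell types in untreated spleen), 0.30 and 0.20 (bulk tumor against PMN-MDSC and M-MDSC), and the share of higher calls went from 52.5% to 35.6%, 40.6% to 21.6%, 55.2% to 39.3%, 48.1% to 35.5% and 52.0% to 62.3% in the first, the second, M-MDSC tumor against spleen, the cell types in spleen and bulk tumor against PMN-MDSC. Uncalled differences near 0 turned sign. For the interaction of spleen and tumor in PMN-MDSC, Oas2 was −0.043 under DESeq2, −0.042 under RLE and −0.0078 in one fit, and Oasl1 was 0.077 under upper-quartile scaling. For that of the cell types in spleen, Oas3 was −0.0504 under DESeq2, −0.0501 under RLE, −0.18 under upper-quartile scaling, −0.071 with no filter and −0.12 in one fit. Under upper-quartile scaling Oasl2 was −0.032 for the cell types' interaction in tumor, Oas1g 0.10 between tumor and spleen in PMN-MDSC, and Oas2 −0.0096 in M-MDSC. With 1 library left out, ranges that spanned 0 were −0.058 to 0.26 (Oas2, M-MDSC tumor against spleen), −0.21 to 0.12 (Oas1g, PMN-MDSC tumor against spleen), −0.29 to 0.26 (Oas3) for the cell types' interaction in spleen, −0.44 to 0.62 (Oasl1) and −0.25 to 0.28 (Oasl2) for that in tumor, −0.21 to 0.38 (Oas1b) for spleen and tumor in M-MDSC, and −0.21 to 0.25 (Oas2) and −0.33 to 0.32 (Oasl1) in PMN-MDSC. The cause of these changes was not tested. With the count minimum, the depth left Oas1c untested in all comparisons and Oas1b untested after treatment in tumor M-MDSC.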
